A study of Drosophila melanogaster with 6 samples.

Results

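The genes described here are 6 regulators that specify the endoderm (the gut lining) and the hindgut of the Drosophila melanogaster embryo: serpent (srp), fork head (fkh), brachyenteron (byn), caudal (cad), brother of odd with entrails limited (bowl) and GATAe. They were chosen by symbol, through the FlyBase identifiers of the dm6 annotation, and are 6 of the 17753 genes in the count table. All 6 averaged 10 counts per library or more and so were among the 10429 genes tested, but GATAe reached that mean only through its counts in the knockdown libraries.

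Nascent transcription was measured by global run-on sequencing (GRO-seq), in which nuclei extend the RNA already being made with a tagged nucleotide, and the tagged RNA is sequenced. Nuclear RNA came from whole hand-picked embryos at stage 5, the cellularising blastoderm, when the zygotic genome takes over from maternal products. DomKD embryos (genotype label t216) came from mothers in which a short hairpin RNA against domino (dom), the ATPase that loads the histone variant H2A.Z, was driven in the germline by mat-alpha-Gal4. Ctrl embryos (genotype label t180) came from mothers of the control TRiP (transgenic RNAi) line. The depletion is thus of the maternal supply, and each library pooled many embryos. Each group had 3 libraries, named here by the letter and replicate number of their titles: DomKD A1, A2 and B1, and Ctrl A1, B1 and B2. The titles do not define the letters A and B, which were taken here as batches. Batch A therefore holds 2 DomKD libraries and 1 Ctrl library, and batch B holds 1 DomKD library and 2 Ctrl libraries.

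At the posterior pole of the embryo the receptor Torso turns on tailless and huckebein, which set up the gut primordia at the blastoderm ends. srp and GATAe encode GATA zinc-finger factors: srp specifies the endoderm, the fat body and the blood cells, and GATAe acts downstream of it in the differentiating midgut. fkh encodes a winged-helix factor needed in foregut, hindgut and midgut, byn the T-box factor that specifies the hindgut, cad a homeodomain factor supplied both by the mother and by the zygote, and bowl a zinc-finger factor of the odd-skipped family needed for gut morphogenesis.

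Library totals were 10862281 (A1), 10660708 (A2) and 15790602 (B1) counts in DomKD, against 12487166 (A1), 24537992 (B1) and 20115683 (B2) counts in Ctrl. Nascent reads of dom gave 665, 690 and 966 counts per 1000000 (CPM, on library sizes scaled by edgeR's TMM method) in DomKD, against 848, 811 and 707 CPM in Ctrl. The fitted log2 difference was 0.01, standard error (SE) 0.18 (edgeR adjusted p 0.973), which became -0.47 on total counts (edgeR adjusted p 0.0303) and -1.01 when libraries were scaled on Zelda target genes (edgeR adjusted p 7.1e-05), past the threshold as lower in both. The hairpin acts on maternal mRNA and not on transcription in the embryo, so these reads do not check the knockdown. Markers of the cellularising blastoderm were present in every library, with summed levels of 6170 to 10800 CPM in DomKD and 2130 to 4960 CPM in Ctrl over 7 of 8 genes. Sry-alpha, the remaining marker, had no read in any library and shares sequence on its strand with a neighbouring gene.

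5 of the 6 genes, srp, fkh, byn, cad and bowl, were higher in DomKD than in Ctrl under TMM scaling, and none was lower, while under a scaling on Zelda target genes only cad passed and bowl stood at -0.34 (edgeR quasi-likelihood test with batch in the model, Benjamini-Hochberg adjustment over all genes tested, threshold 0.05). Over all 10429 genes tested, 12.1% (1259 genes) passed in this direction under TMM, 5.16% (538) on total counts and 0.70% (73) under the Zelda scaling. The genes and the grouping were proposed with results of these data known, so the count is a description and is not evidence of its own. The lowest DomKD library lay above the highest Ctrl library for srp, fkh, byn, bowl and, on very few reads, GATAe, a pattern found in 17.2% (1789) of all genes tested, and only cad overlapped between the groups. Log2 fold changes ran from 0.68 for bowl to 1.77 for cad, beside a median of -0.07 over all genes tested. Whole embryos were used, so more cells transcribing a gene and more transcription per cell cannot be told apart.

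**Figure D1:**
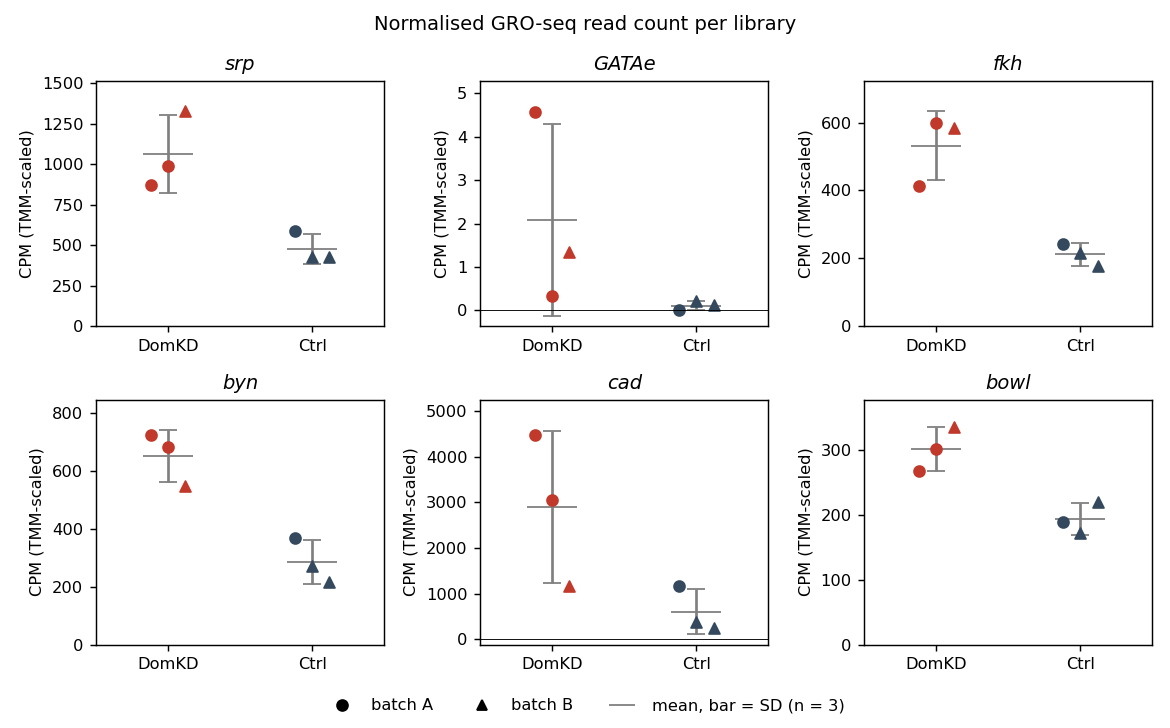
Normalised GRO-seq read count (CPM, TMM-scaled, linear axis) of each of the 6 genes in DomKD libraries (left, red) and Ctrl libraries (right, blue), with circles for batch A, triangles for batch B, and bars for the mean and SD of 3 libraries. On this TMM scale the groups do not overlap for srp, fkh, byn, bowl and GATAe, whose levels are near 0, and they touch for cad, where DomKD B1 (1160 CPM) lies beside Ctrl A1 (1170 CPM).

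The first gene, srp (FBgn0003507, dm6 chr3R:15986152-16004085, plus strand), has 4 annotated start sites and 7 transcripts. Its normalised read count was 870, 990 and 1330 CPM in the DomKD libraries A1, A2 and B1, and 585, 424 and 424 CPM in the Ctrl libraries A1, B1 and B2. The lowest DomKD library thus stood above the highest Ctrl library, and both of these were of batch A. The mean was 1062 ± 236 CPM in DomKD and 478 ± 92.9 CPM in Ctrl (SD, n = 3 each), a log2 fold change of 1.16 with an SE of 0.20 (edgeR adjusted p 0.00281), or 2.23-fold. Within batch A the difference of mean log2 CPM was 0.67, and within batch B it was 1.64, so that the fold within batch B was 3.12 and that within batch A was 1.59. A long noncoding RNA gene, lncRNA:CR44133 (dm6 chr3R:15986181-15993665), lies inside srp on the same strand and covers 7485 bases, 41.7% of its span. It had 0 reads in all 6 libraries, and reads there were counted for neither gene, so the count of srp comes from the remaining 10445 bases.

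The first start site of srp is shown because a GATAAG motif, the core bound by GATA factors such as Serpent itself, lies shortly before it. Given are the 250 bases before the start (dm6 chr3R:15985902-15986151, plus strand, 5′ to 3′), with the motif in capitals, beginning 49 bases before the start.
srp start 1: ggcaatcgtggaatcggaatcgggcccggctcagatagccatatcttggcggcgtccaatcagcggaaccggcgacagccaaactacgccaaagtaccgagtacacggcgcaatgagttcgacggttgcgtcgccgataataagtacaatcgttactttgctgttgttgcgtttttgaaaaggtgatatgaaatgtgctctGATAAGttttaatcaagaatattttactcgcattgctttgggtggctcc
GATAAG on either strand was found in 18.4% of 19630 windows of the same kind (250 bases before to 50 bases from each annotated start), and in 3 of the 15 windows of the 6 genes.

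GATAe (FBgn0038391, dm6 chr3R:16009105-16019133, plus strand) lies next to srp on the same strand, with a second GATA gene, pannier (pnr), 6945 bases beyond it. It had 41, 3 and 18 counts in the DomKD libraries A1, A2 and B1, and 0, 6 and 3 counts in the Ctrl libraries A1, B1 and B2. These are 4.57, 0.333 and 1.35 CPM in DomKD and 0, 0.211 and 0.116 CPM in Ctrl, so that DomKD A1 alone held most of the reads. The highest Ctrl library had more reads than the lowest DomKD library and was below it only after scaling for depth. Summed over the libraries of a group, 62 counts gave 1.98 CPM (95% exact Poisson interval 1.52 to 2.54) in DomKD, and 9 counts gave 0.132 CPM (0.0601 to 0.250) in Ctrl. The intervals cover counting error only, and single DomKD libraries lay on both sides of theirs. The fitted log2 fold change was 4.62 with an SE of 2.49 and did not pass the threshold (edgeR adjusted p 0.214), and since Ctrl A1 had no read its size depends on the prior count. The count of 0 in Ctrl A1 allows up to 3 counts, or 0.213 CPM.

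The second annotated start of GATAe, 3169 bases after the first, is shown because it holds 3 of the GATAAG matches found in the windows of the 6 genes. Given are the 250 bases before it (dm6 chr3R:16012024-16012273, plus strand), with GATAAG or its reverse complement in capitals, at 217, 181 and 164 bases before the start.
GATAe start 2: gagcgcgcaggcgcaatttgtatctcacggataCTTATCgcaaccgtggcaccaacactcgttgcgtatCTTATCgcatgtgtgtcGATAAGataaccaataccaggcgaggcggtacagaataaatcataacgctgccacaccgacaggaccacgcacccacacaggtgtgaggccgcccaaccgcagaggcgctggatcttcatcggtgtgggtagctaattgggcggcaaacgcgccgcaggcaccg
Beside the few reads of GATAe, these letters are a description of the window and show no binding.

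fkh (FBgn0000659, dm6 chr3R:28580976-28585264, minus strand) is the shortest of the 6 genes and has 2 annotated starts, 152 bases apart. Its normalised read count was 414, 598 and 583 CPM in the DomKD libraries A1, A2 and B1, and 243, 214 and 177 CPM in the Ctrl libraries A1, B1 and B2. All 3 DomKD libraries were above all 3 Ctrl libraries, and DomKD A1 was the lowest of its group. The mean was 532 ± 102 CPM in DomKD and 212 ± 33.0 CPM in Ctrl (SD, n = 3 each), a log2 fold change of 1.32 with an SE of 0.19 (edgeR adjusted p 0.00126), or 2.49-fold. Batch A gave a difference of 1.03 in mean log2 CPM and batch B one of 1.58. None of the 6 motifs searched was found in either window of fkh. The gene on its upstream side, lncRNA:CR43126, starts 783 bases from the first start of fkh and runs away from it on the other strand. It was also higher in DomKD, with a log2 fold change of 1.80 and an SE of 0.30 (edgeR adjusted p 0.00199).

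Of the hindgut genes, byn (FBgn0011723, dm6 chr3L:11927693-11935919, plus strand) has 1 annotated start. Its normalised read count was 721, 683 and 548 CPM in the DomKD libraries A1, A2 and B1, and 367, 272 and 216 CPM in the Ctrl libraries A1, B1 and B2. The groups did not overlap, and in both groups the batch A libraries were the higher ones. The mean was 651 ± 90.8 CPM in DomKD and 285 ± 76.3 CPM in Ctrl (SD, n = 3 each), a log2 fold change of 1.05 with an SE of 0.16 (edgeR adjusted p 0.00142), or 2.08-fold. The batches gave similar differences of mean log2 CPM, 0.94 in batch A and 1.18 in batch B. byn lies whole within CG44837, a protein-coding gene of the opposite strand, and reads were counted by strand. CG44837 had a mean of 440 counts per library and was higher in DomKD by 1.53 on the log2 scale with an SE of 0.32 (edgeR adjusted p 0.00642).

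The window before the start of byn is shown because it was the only window of the 15 with a TAGteam motif (CAGGTA), the site of the pioneer factor Zelda, which opens early zygotic promoters. Given are the 250 bases before the start (dm6 chr3L:11927443-11927692, plus strand), with the TAGteam motif on the reverse strand as TACCTG, 243 bases before the start, and both matches to GAGAG, the site of GAGA factor, in capitals.
byn start 1: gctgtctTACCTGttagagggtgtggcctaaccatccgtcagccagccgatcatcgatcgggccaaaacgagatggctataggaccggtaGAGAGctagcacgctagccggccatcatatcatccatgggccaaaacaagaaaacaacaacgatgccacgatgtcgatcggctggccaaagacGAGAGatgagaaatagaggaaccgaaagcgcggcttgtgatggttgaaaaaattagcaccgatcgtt
CAGGTA on either strand was found in 6.38% of all 19630 windows, and GAGAG in 33.1% of them and in 7 of the 15 windows of the 6 genes, those of srp, byn, cad and bowl. Windows of neighbouring starts of cad and of bowl overlap, so some matches are counted in more than 1 window.

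cad (FBgn0000251, dm6 chr2L:20770731-20783135, plus strand) had the largest change of the 5 genes that passed. Its normalised read count was 4470, 3050 and 1160 CPM in the DomKD libraries A1, A2 and B1, and 1170, 386 and 257 CPM in the Ctrl libraries A1, B1 and B2. DomKD B1 lay just below Ctrl A1, so the groups overlapped, while within each batch every DomKD library was above every Ctrl library. The mean was 2891 ± 1661 CPM in DomKD and 604 ± 494 CPM in Ctrl (SD, n = 3 each). With batch in the model the log2 fold change was 1.77 with an SE of 0.22 (edgeR adjusted p 0.000684), or 3.40-fold. Without a batch term it was 2.26 and missed the threshold (edgeR adjusted p 0.054).

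The batch difference of cad was about as large as its group difference. Batch A exceeded batch B 3.19-fold in DomKD and 3.71-fold in Ctrl, and within the batches DomKD exceeded Ctrl by 1.66 (batch A) and 1.88 (batch B) in mean log2 CPM. Only 10.1% of all genes tested in DomKD and 6.22% in Ctrl had a difference of batch B minus batch A as low as that of cad or lower. Markers of the cellularising blastoderm followed the same order within each group. Their summed levels were 10800, 9790 and 6170 CPM in the DomKD libraries A1, A2 and B1, and 4960, 2600 and 2130 CPM in the Ctrl libraries A1, B1 and B2. Unlike for cad, DomKD B1 was thus above Ctrl A1. nullo, a cellularisation gene of short expression, had 693, 357 and 14.4 CPM in the DomKD libraries A1, A2 and B1, and 150, 8.50 and 8.97 CPM in the Ctrl libraries A1, B1 and B2. All 7 of these markers tested were higher in DomKD under TMM scaling. All 7 are also among the Zelda target genes of the other scaling, which was computed in part from them and does not test them. The 5 maternal germline markers summed to 71.1, 71.3 and 17.9 CPM in DomKD and to 20.0, 4.29 and 12.3 CPM in Ctrl. Of the germline markers, bicoid (bcd) alone passed the threshold, at 2.24 with an SE of 0.49 (edgeR adjusted p 0.00809). Of the markers of stages after 5, gcm, btl and trh were higher and 5 others tested did not pass, elav among them at -0.07, and both tested yolk and fat body markers did not pass. The tested markers of stages after 5 summed to 566, 632 and 940 CPM in the DomKD libraries A1, A2 and B1. Their sums were 469, 708 and 677 CPM in the Ctrl libraries A1, B1 and B2. Whether the exact age of the embryos has a part in the result for cad, or for the other genes described, was not tested. GRO-seq reads RNA being made in the nuclei of the embryo, and gene counts do not show which start site of cad was used.

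Both starts of cad lie close together, the second 163 bases after the first. The window before the first start is shown as that of the gene with the largest change, with a GAGAG match on the reverse strand (CTCTC) in capitals, 64 bases before the start (dm6 chr2L:20770481-20770730, plus strand). The second start had the only DRE (TATCGATA, the element bound by DREF at many housekeeping promoters) in the 15 windows, and 30 bases around it (dm6 chr2L:20770855-20770884, plus strand) are given with the element in capitals, 28 bases before the start.
cad start 1: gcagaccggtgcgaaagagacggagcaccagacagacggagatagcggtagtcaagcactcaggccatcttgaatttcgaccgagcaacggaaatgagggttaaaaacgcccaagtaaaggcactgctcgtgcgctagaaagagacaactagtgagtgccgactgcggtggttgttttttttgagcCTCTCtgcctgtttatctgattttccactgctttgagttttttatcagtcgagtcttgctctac
cad start 2, DRE site: tttcgaaatatTATCGATAtctcggtcgta
TATCGATA was found in 7.98% of all 19630 windows. TTTATG, a core that Caudal itself binds, was found in 25.9% of them and in 3 windows of the 6 genes, which belong to srp and GATAe and not to cad.

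bowl (FBgn0004893, dm6 chr2L:3771700-3784121, plus strand) has 4 annotated starts and showed the smallest change of the 6 genes. Its normalised read count was 269, 302 and 336 CPM in the DomKD libraries A1, A2 and B1, and 190, 172 and 220 CPM in the Ctrl libraries A1, B1 and B2. The groups did not overlap, but DomKD A1 and Ctrl B2 lay close together. The mean was 302 ± 33.5 CPM in DomKD and 194 ± 24.0 CPM in Ctrl (SD, n = 3 each), a log2 fold change of 0.68 with an SE of 0.16 (edgeR adjusted p 0.0115), or 1.60-fold. Batch A gave a difference of 0.58 in mean log2 CPM and batch B one of 0.79. bowl was the only gene of the 6 with a TATAAA match, in 2 of its 4 windows, a motif found in 42.2% of all windows.

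**Figure D2:**
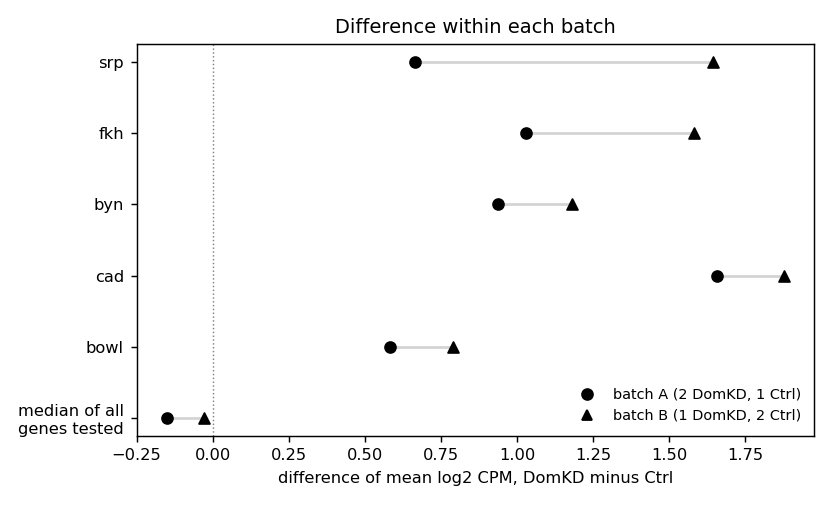
Difference of mean log2 CPM (TMM-scaled), DomKD minus Ctrl, within batch A (circles, 2 DomKD and 1 Ctrl library) and within batch B (triangles, 1 DomKD and 2 Ctrl libraries), for srp, fkh, byn, cad and bowl and for the median of all genes tested. Under this scaling all 5 genes lie above 0 in both batches, between 0.58 and 1.88, with the widest gap between batches for srp (0.67 and 1.64), while the median of all genes was -0.15 in batch A and -0.03 in batch B.

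The next question was how far these values rest on the scaling between libraries. Under TMM, RLE and upper quartile scaling the 5 genes kept changes of 0.68 to 1.82 and all passed the threshold. On total counts, srp had 0.68, fkh 0.84, byn 0.57 and cad 1.29, all past the threshold, and bowl 0.20, which did not pass (edgeR adjusted p 0.407). The study scaled its libraries on genes that depend on Zelda, and a list of 46 Zelda targets written from general knowledge, with the 6 genes left out, was used in its place. Under this scaling cad alone passed, at 0.75 (edgeR adjusted p 0.00181), and srp at 0.14, fkh at 0.30, byn at 0.04 and bowl at -0.34 did not. The median of all genes tested moved in the same way, to -0.56 on total counts and to -1.09 under the Zelda list. A scaling moves all genes by about the same amount, so the distance from that median is nearly fixed by construction, at 1.23 for srp, 1.39 to 1.40 for fkh, 1.13 for byn, 1.84 for cad and 0.75 to 0.76 for bowl. In the Zelda list itself 43 of 46 genes were higher in DomKD under TMM, with a median of 1.02. The distance of the 5 genes from 0 was not fixed by these counts.

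**Figure D3:**
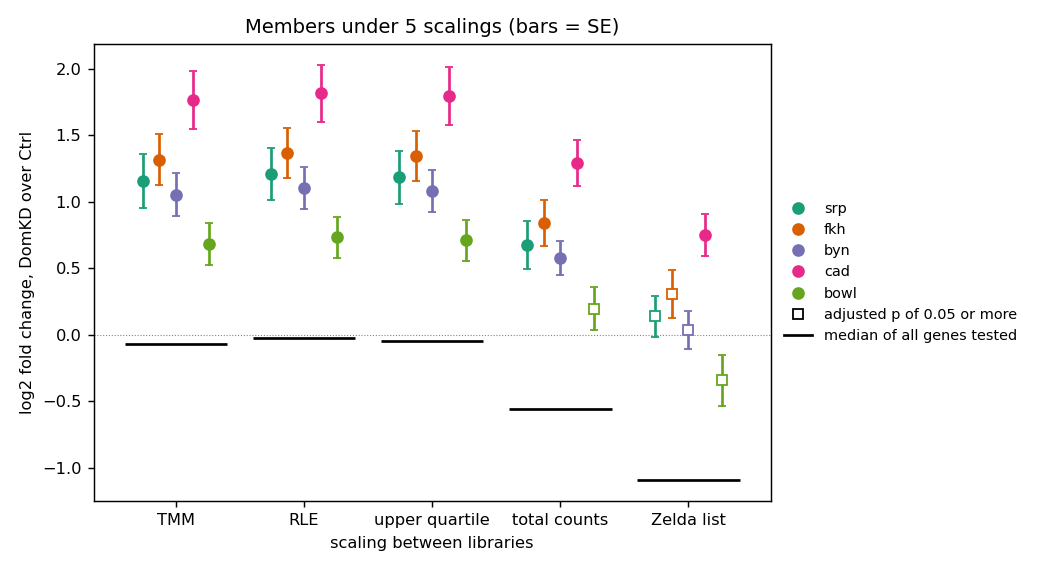
Log2 fold change (DomKD over Ctrl, bars SE) of srp, fkh, byn, cad and bowl under 5 scalings between libraries, with open squares for an adjusted p of 0.05 or more and black lines for the median of all genes tested. Genes and median shift down together from TMM (median -0.07) to the Zelda list (median -1.09), where bowl falls below 0 (-0.34) and only cad passes the threshold.

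The calls also rested on DomKD B1, the only DomKD library of batch B. Without it none of the 5 genes passed, at log2 fold changes of 0.67 for srp, 1.06 for fkh, 0.94 for byn, 1.68 for cad and 0.58 for bowl (edgeR adjusted p 0.0656 to 0.17), and 9 of all genes tested passed. That fit compares DomKD A1 and A2 with Ctrl A1 alone. Without Ctrl A1, bowl alone of the 5 lost its call (edgeR adjusted p 0.0919). With Ctrl A1 left out, batch A holds no Ctrl library, so that fit compares DomKD B1 alone with Ctrl B1 and B2. Leaving out any other single library kept all 5 past the threshold. For srp the change ran from 0.67 without DomKD B1 to 1.58 without Ctrl A1.

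Levels were then compared between the genes, as CPM per kilobase of the annotated gene span, introns included. In DomKD the order was cad (233 ± 134), fkh (124 ± 23.7), byn (79.12 ± 11.04), srp (59.2 ± 13.2), bowl (24.3 ± 2.70) and GATAe (0.208 ± 0.221; SD, n = 3 each). In Ctrl it was fkh (49.3 ± 7.70), cad (48.7 ± 39.8), byn (34.6 ± 9.28), srp (26.6 ± 5.18), bowl (15.6 ± 1.93) and GATAe (0.0109 ± 0.0105; SD, n = 3 each). In Ctrl the libraries of fkh and cad, cad and byn, and byn and srp overlapped, so their order is not settled beyond the spread, while bowl was below srp and GATAe below bowl in every library. In DomKD cad and fkh overlapped and byn and srp overlapped, and fkh was above byn and srp above bowl without overlap. Counted over the 10445 bases that no other gene shares, srp had 102 ± 22.6 in DomKD and 45.7 ± 8.90 CPM per kilobase in Ctrl (SD, n = 3 each), which places it between fkh and byn by its mean in both groups. Among all genes tested, fkh stood at percentile 94.95 in DomKD and 91.35 in Ctrl, bowl at 78.8 in DomKD and 65.0 in Ctrl, and GATAe at 5.73 in DomKD and 0.326 in Ctrl.

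**Figure D4:**
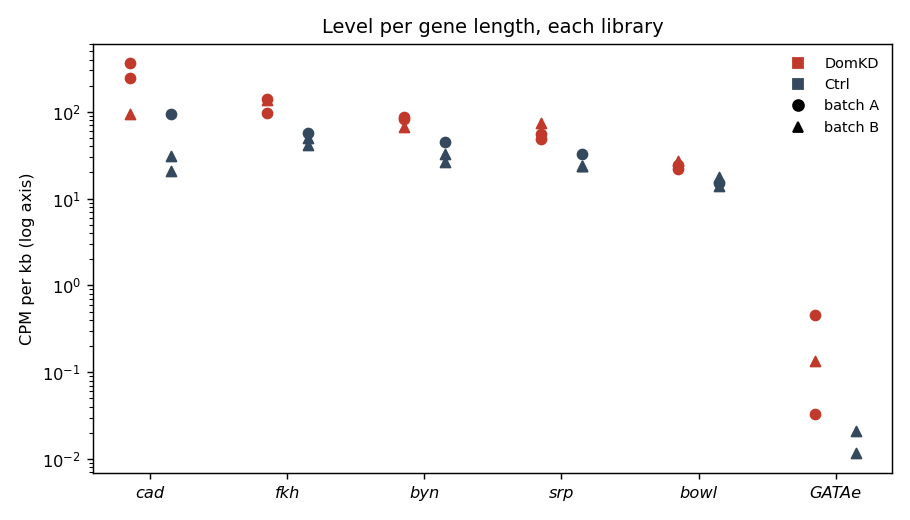
Level per gene length (CPM per kilobase of annotated span, log axis) of the 6 genes in each DomKD library (red, left of each pair) and Ctrl library (blue, right), with circles for batch A and triangles for batch B. The level falls from cad and fkh to bowl and then to GATAe, which is below bowl in every library, and the value of 0 of GATAe in Ctrl A1 cannot be drawn on this axis.

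Profiles over the 6 libraries were compared as the root mean square difference of log2 CPM after centring each gene on its own mean, where 0 is an identical profile. Among the 6 genes, srp and fkh were closest (0.186), followed by fkh and byn (0.283) and srp and byn (0.320), while cad stood 0.855 to 1.45 from the others. Among 6787 protein-coding genes averaging 100 counts or more, the nearest to srp were olf413 (0.0803) and Tollo (0.101), which encodes a Toll-family receptor. The nearest to fkh were CG13921 (0.114) and Atg17 (0.131), which encodes an autophagy factor. The nearest to byn were Lac (0.0386), which encodes the septate junction protein Lachesin, and CG10035 (0.0486). The nearest to cad were Art2 (0.158), an arginine methyltransferase gene, and CG7271 (0.174), and the nearest to bowl were pdm3 (0.0709), a POU-domain gene, and Lrt (0.0723). GATAe, on its few reads, had no close profile, the nearest being CG6225 (0.667) and scaf (0.796). The median distance over all candidates was 0.617 for bowl to 1.64 for cad and 1.89 for GATAe, and with 6 points that share libraries and batches these distances are a description.

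Neighbouring genes were read from the same fit. The lower-coordinate neighbour of srp, the helicase gene Hel89B, 2700 bases away, had a log2 fold change of 0.39 that did not pass (edgeR adjusted p 0.102), and lncRNA:CR42839, which lies between srp and GATAe, had a mean of 11.5 counts and did not pass. Beyond GATAe, pnr had 0.71 with an SE of 0.23 and just missed the threshold (edgeR adjusted p 0.0513). Next to cad, diaphanous (dia), a formin gene, was higher in DomKD by 0.91 with an SE of 0.20 (edgeR adjusted p 0.00798), and the proteasome assembly gene Pomp had 0.35 and did not pass (edgeR adjusted p 0.364). The other neighbours, mIF2 beside fkh, CG17826 beside byn, and lncRNA:CR43704 and CR31958 beside bowl, did not pass. Changes past the threshold thus occurred in 1 neighbour each of fkh, byn and cad, in each case higher in DomKD under TMM scaling. Of all genes tested, 12.1% were higher under TMM and 0.70% under the scaling on the Zelda list. The neighbours were read under TMM alone.

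The other genes of the pathways were taken from 8 lists, 65 genes without the 6 described, of which 64 were tested. Under TMM 31 of the 64 were higher in DomKD and none was lower (edgeR, 1 lower at an unadjusted p under 0.05, and 35 higher and 0 lower by DESeq2), with a median log2 fold change of 0.74, whereas under the Zelda list scaling 1 was higher and 18 were lower. Of all 10429 genes tested, 12.1% were higher and 9.64% lower under TMM, and 0.70% were higher and 46.1% lower under the Zelda list. Of the 64 genes, 12 are themselves on the Zelda list (tll, hkb, odd, ush and the 8 caudal targets), so that scaling was computed in part from them and does not test them. Without DomKD B1 none of them passed in either direction, as none of the 6 genes did, and without Ctrl A1 17 were higher.

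In the terminal system, which acts upstream at the embryo ends, 4 of 14 genes were higher and none was lower, with a median of 0.08. They were the zygotic target genes tailless (tll, 1.42, SE 0.18, edgeR adjusted p 0.000798) and huckebein (hkb, 1.24, SE 0.18, edgeR adjusted p 0.00119), the repressor capicua (cic, 1.41, SE 0.15, edgeR adjusted p 0.000446) and the adaptor drk (0.52, SE 0.16, edgeR adjusted p 0.0372). The 10 that did not pass include the receptor torso (tor) and the kinase cascade of phl, Dsor1 and rl. Under the Zelda list scaling 1 of the 14 was higher and 8 were lower, beside 0.70% higher and 46.1% lower of all genes tested. The genes past the threshold under TMM thus included tll and hkb, the gap genes that act upstream of srp, fkh and byn at the posterior pole.

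Of 12 midgut and endoderm genes, 8 were higher and none was lower, with a median of 0.86. The largest changes were those of mex1 (1.57, SE 0.47, edgeR adjusted p 0.0335), a midgut gene, Inx7 (1.45, SE 0.29, edgeR adjusted p 0.00556), an innexin of gap junctions, and hkb. Of 12 hindgut genes, 7 were higher and none was lower, with a median of 0.70, led by the JAK/STAT ligand upd1 (1.14, SE 0.18, edgeR adjusted p 0.00168), the posterior Hox gene Abd-B (1.08, SE 0.20, edgeR adjusted p 0.00324) and wg (0.94, SE 0.16, edgeR adjusted p 0.00257), the Wnt ligand expressed in the hindgut primordium. Under the Zelda list scaling no gene of either list was higher and 3 of each were lower. Of all genes tested, 12.1% were higher under TMM, and 0.70% were higher and 46.1% lower under the Zelda list. drumstick (drm), which acts together with bowl in the hindgut by relieving bowl protein of its antagonist lines (lin), had 0.09, and lin had 0.08, and neither passed (edgeR adjusted p 0.826 for drm and 0.772 for lin).

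The families of the genes were mixed. Of the other odd-skipped family genes, sob (0.90, SE 0.18, edgeR adjusted p 0.00511) and odd (0.83, SE 0.16, edgeR adjusted p 0.00435) were higher and drm did not pass. Of the other 3 GATA genes, pnr, GATAd and grn, none passed, with values of 0.71 for pnr, 0.28 for GATAd and 0.10 for grn, so that srp was the only GATA gene past the threshold in the edgeR fit with TMM scaling. Under the Zelda list scaling none of these family genes was higher, and 2 of the 3 GATA and 1 of the 3 odd-skipped genes were lower. Of all genes tested, 12.1% were higher under TMM and 46.1% lower under the Zelda list.

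All 8 genes listed as caudal targets, the gap and pair-rule genes ftz, eve, kni, gt, h, run, hb and Kr, were higher. Their median was 1.00, with the largest changes in hb (1.29, SE 0.19, edgeR adjusted p 0.00135), ftz (1.14, SE 0.19, edgeR adjusted p 0.00191) and gt (1.07, SE 0.17, edgeR adjusted p 0.00176). These 8 are also on the Zelda list, so their values under that scaling are not independent of it. Of that whole list, 43 of 46 genes were higher under TMM, with a median of 1.02. Whether cad has a part in the change of the 8 genes was not tested. Of 8 fork head target and salivary gland genes tested, 3 were higher, sens, a zinc-finger factor (1.17, SE 0.23, edgeR adjusted p 0.00485), rib, a BTB-domain factor of tube formation (1.14, SE 0.17, edgeR adjusted p 0.00135) and CrebA, a factor of secretory capacity (0.88, SE 0.26, edgeR adjusted p 0.0334), while sage, the salivary gland bHLH factor, did not pass, with 5.91, 0 and 0 CPM in the DomKD libraries A1, A2 and B1 and 4.25, 1.86 and 2.28 CPM in the Ctrl libraries A1, B1 and B2. Of 9 serpent lineage and cofactor genes 2 were higher, the receptor gene Pvr (0.91, SE 0.25, edgeR adjusted p 0.0242) and gcm, a glial and blood cell factor (0.88, SE 0.19, edgeR adjusted p 0.00813), and the srp cofactor ush had 0.29 and did not pass (edgeR adjusted p 0.359). Under the Zelda list scaling none of the fork head or serpent list genes was higher, and 2 and 1 of them were lower, beside 46.1% lower of all genes tested.

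**Figure D5:**
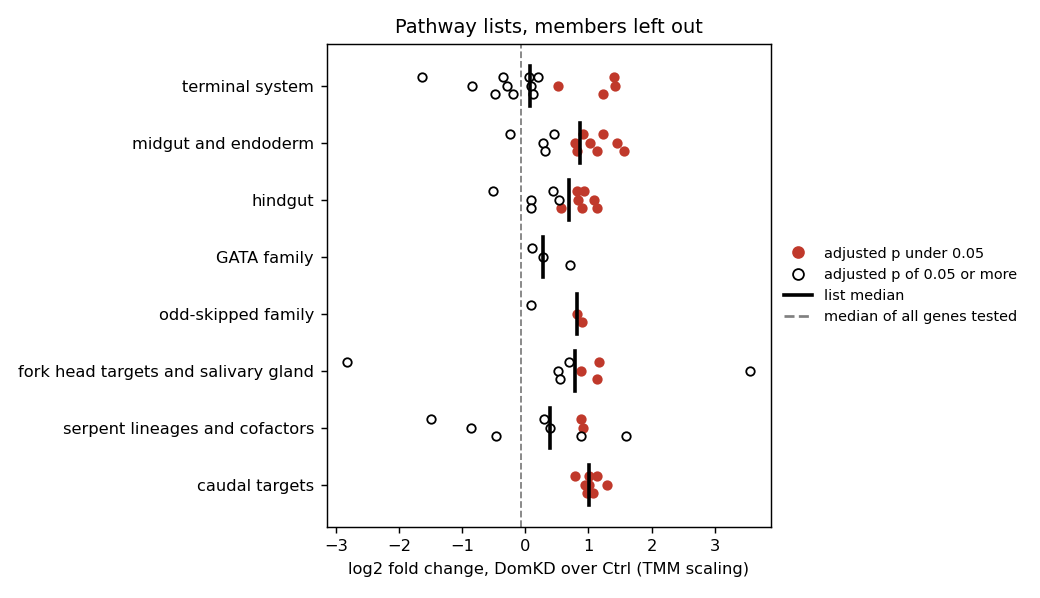
Log2 fold change (DomKD over Ctrl, TMM scaling) of each tested gene of the 8 pathway lists, without the 6 genes themselves, in red where the adjusted p was under 0.05 and open otherwise, with black bars for list medians and a dashed line for the median of all genes tested (-0.07). All red points lie above 0, and the list medians run from 0.08 for the terminal system to 1.00 for the caudal targets, whereas under the Zelda list scaling 1 of the 64 genes was higher and 18 were lower, beside 0.70% higher and 46.1% lower of all genes tested.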

How the data were processed

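GRO-seq libraries of 3 DomKD and 3 Ctrl pools of stage 5 embryos were analysed, which the methods name as biological replicates. The values the authors deposited are raw counts of reads for each gene in each library, beside a length per gene (another value, in bases), which for the 6 genes is the annotated span, introns included, or within a few bases of it. Per the study's methods and processing notes, the authors trimmed reads with cutadapt 2.5, removed random barcodes with UMI-tools 1.0, aligned to dm6 with Bowtie2, and counted by strand with featureCounts at a mapping quality of at least 3. Duplicates were kept, so reads are not independent molecules and counting intervals cover counting error only.

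Genes averaging 10 counts or more were tested with the quasi-likelihood test of edgeR 4.0.16 in R 4.3.3 (two-sided, TMM scaling, batch and group in the model, Benjamini-Hochberg adjustment, threshold 0.05). Log2 CPM used a prior count of 2. Alternatives were 4 other scalings, 2 count filters, no batch term, a replicate block, DESeq2 1.42.0, and each library left out. The fit was tested on simulated data. Totals of 10660708 to 24537992 counts per library leave counting error small except for GATAe.

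The genes named were the 6 members and dom, the nearest profiles and neighbours of each member, and up to 3 genes past the threshold per list and direction, with others where a result turned on them, chosen after their values were seen. Members and lists were chosen with earlier results of these data known. Names, starts and sequences came from the Ensembl annotation and the RefSeq genome sequence of the same assembly, on which 99.88% of 16237 start codons read ATG. Tables of proteins were not used here. The replicate numbers of the titles were not used to pair libraries in the main fit. Correlations of deviations from group means, between DomKD and Ctrl libraries of the same number, were 0.198 and 0.24 within a batch and -0.358 to -0.0959 between batches. With 3 libraries a group, these values do not settle whether libraries were paired.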

Additional observations from a re-analysis of the deposited data

How the results depend on the processing

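With size factors from the Zelda list, 4878 genes (73 higher and 4805 lower, against 1259 and 1005 under TMM) and 1 of the 6 members (cad) passed the threshold, and values were 0.14 for srp, 0.30 for fkh, 0.037 for byn and, with the sign turned, -0.34 for bowl. DESeq2 with the same size factors and no batch term gave 5028 genes (68 higher and 4960 lower) and 1 member (cad, 1.18), with 0.15 for fkh, 0.0085 for byn and turned signs for srp (-0.0025) and bowl (-0.60). On total counts bowl had 0.20 and did not pass. With DESeq2 and batch GATAe passed, at 4.94 (DESeq2 adjusted p 0.0321), in 1 of the 14 alternatives that tested it. GATAe was tested only because of its DomKD counts, 41 of them in DomKD A1, so this call is not evidence of its own. Without a batch term cad had 2.26 and did not pass. A replicate block used instead of the batch term left 1035 genes and 3 members past the threshold, and cad (2.41, edgeR adjusted p 0.0761) and bowl (0.65, edgeR adjusted p 0.0767) did not. That block ended no other member's call. Leaving out 1 library gave 9 (without DomKD B1) to 3082 genes (without DomKD A1), with 647, 1295 and 1351 without Ctrl A1, Ctrl B1 and Ctrl B2, and 0 to 5 members. Log2 fold changes then ran from 0.67 to 1.58 for srp, 1.06 to 1.51 for fkh, 0.94 to 1.12 for byn, 1.65 to 1.90 for cad, 0.58 to 0.76 for bowl and 2.92 to 8.41 for GATAe. Within batches A and B srp had 0.67 and 1.64 and fkh 1.03 and 1.58, and GATAe had 2.39 within batch B. A mean of at least 50 counts and the fit without DomKD A1 gave no value for GATAe. Other alternatives kept the direction and the call of each member. The cause of these shifts was not tested beyond the shift of the median of all genes. With 3 libraries a group, 1 of them alone in its batch, a result within 1 batch has no spread of its own, and for GATAe the depth limits any comparison.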
